A study of Mus musculus with 6 samples.

Results

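The genes described here are 38 regulators and effectors of the cell cycle and of DNA replication, read in 6 subcutaneous tumours of a mouse pancreatic cancer line. Members were taken by gene symbol from the deposited table of 55357 genes. All 38 symbols were present, each on a single row, and all 38 passed the filter of a mean of at least 1 TPM that left 15023 genes to test. They fall into 17 mitotic genes, 13 S-phase genes and 8 G1 regulators. The tumours grew in C57BL/6J mice from 250000 injected KPC1242 cells, a pancreatic ductal adenocarcinoma (PDAC) line. The 3 FA tumours came from mice gavaged daily with 2 mg folinic acid (FA), a reduced folate, from day 8 to day 12. The 3 PBS tumours came from mice given phosphate-buffered saline on the same days, and all tumours were taken on day 14. All 6 rest on 1 cell line, and the labels do not state that each tumour came from its own mouse, so p-values measure the spread between these tumours. Sample descriptions carry 1 prefix in FA and another in PBS tumours, and what it marks cannot be told apart from treatment.

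A cell that commits to division passes from G1 into DNA synthesis (S phase) and then into mitosis. In G1, D-type cyclins with Cdk4 phosphorylate the retinoblastoma protein, which releases E2F transcription factors, and E-type cyclins with Cdk2 add to this. E2F targets load the MCM helicase on origins and build the replication fork. A later wave of transcripts encodes the cyclins, kinases and motors of mitosis. The promoters of these genes are bound by the B-Myb and FoxM1 activators and, in resting cells, by the DREAM repressor. Folates carry the 1-carbon units from which thymidylate and purines are made, so S phase depends on them.

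As a check of the tissue, Krt19, a keratin of ductal cells, was at 1177, 1248 and 1312 TPM with FA, against 1071, 1186 and 1089.6 TPM with PBS. Levels are given as TPM, the length-scaled share of a transcript in its library, from which read depth cannot be had. FA replicate 3 stood apart. Its correlations across genes with each of the remaining tumours lay from 0.949 to 0.968, and those of the remaining 5 with one another from 0.981 to 0.987. It held the highest level of every macrophage, fibroblast, endothelial and skeletal muscle marker read (6, 7, 5 and 6 genes), so group medians and the members with a wide spread are also given without it, and the plot of differences gives all 38. Lymphocyte markers summed to 1.61 to 4.04 TPM with FA and 1.56 to 2.10 TPM with PBS over 8 genes, with Ncr1 listed at 0 in FA replicate 1 and Cd3d in PBS replicate 3.

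Promoters of the mitotic and S-phase genes hold the letters of different control elements in different shares. The CHR element is bound by the DREAM and B-Myb complexes, CCAAT boxes by NF-Y, and E2F sites by E2F factors. RefSeq promoter windows of build GRCm38.p6, 250 bases before to 50 after a gene's start, were matched by symbol for 28 of 38 members. The CHR element was searched as TTTGAA or TTCGAA, the CCAAT box as CCAAT, and the E2F site as TTTCCCGC, TTTGGCGC, TTTGCCGC or TTTCGCGC, on both strands, with overlapping matches allowed. Windows with a CHR match belonged to 10 of 13 mitotic genes, 4 of 11 S-phase genes and 0 of 4 G1 regulators, against 21.7% of all 27025 genes with a window. CCAAT matches belonged to 11 of 13 mitotic, 8 of 11 S-phase and 1 of 4 G1 regulator genes, against 41.1% of all genes. CHR and CCAAT occurred together in 10 of 13 mitotic and 3 of 11 S-phase genes, against 9.65% of all genes. E2F matches belonged to 1 of 13 mitotic genes, 7 of 11 S-phase genes and 1 of 4 G1 regulators, against 2.60% of all genes. A match is a description of the letters, and no factor's binding was measured in these tumours.

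The next sequences are the 220 bases just before the start in 3 mitotic genes that hold CHR and CCAAT letters there and 3 S-phase genes that hold E2F letters there. Each set holds the members of that kind, with a single window, that had the widest spread between tumours. Members of wider spread without a window, such as Aurkb, or without these letters in the window, such as Birc5, were not eligible. Nor were those, such as Plk1, whose window holds the letters but whose 220 bases do not hold all that were asked for. The sequences are printed to show the elements of the mitotic and of the S-phase wave side by side. Capitals mark matches to any of the searched letters, read 5′ to 3′ on the gene's strand, and coordinates are of GRCm38.p6 (RefSeq).
Top2a, chr11:99024190-99024409, minus strand: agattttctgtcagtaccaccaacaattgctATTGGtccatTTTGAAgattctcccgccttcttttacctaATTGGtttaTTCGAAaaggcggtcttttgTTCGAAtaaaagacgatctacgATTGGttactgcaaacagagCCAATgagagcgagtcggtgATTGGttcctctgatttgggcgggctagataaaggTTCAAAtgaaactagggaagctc
Cdk1, chr10:69352913-69353132, minus strand: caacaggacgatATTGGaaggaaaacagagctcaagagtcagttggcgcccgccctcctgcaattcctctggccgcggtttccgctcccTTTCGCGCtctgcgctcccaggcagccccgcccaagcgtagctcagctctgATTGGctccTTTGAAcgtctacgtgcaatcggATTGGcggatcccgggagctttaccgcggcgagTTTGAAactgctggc
Mki67, chr7:135716380-135716599, minus strand: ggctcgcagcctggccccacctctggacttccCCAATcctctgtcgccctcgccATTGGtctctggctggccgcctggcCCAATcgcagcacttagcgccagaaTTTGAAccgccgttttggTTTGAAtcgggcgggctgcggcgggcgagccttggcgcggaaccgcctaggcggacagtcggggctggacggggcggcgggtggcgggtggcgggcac
Cdc6, chr11:98907931-98908150, plus strand: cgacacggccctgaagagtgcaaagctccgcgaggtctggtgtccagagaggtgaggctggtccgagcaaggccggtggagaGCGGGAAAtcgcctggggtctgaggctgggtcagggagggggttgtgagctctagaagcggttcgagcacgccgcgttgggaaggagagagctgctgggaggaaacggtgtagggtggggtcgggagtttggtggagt
Mcm5, chr8:75109289-75109508, plus strand: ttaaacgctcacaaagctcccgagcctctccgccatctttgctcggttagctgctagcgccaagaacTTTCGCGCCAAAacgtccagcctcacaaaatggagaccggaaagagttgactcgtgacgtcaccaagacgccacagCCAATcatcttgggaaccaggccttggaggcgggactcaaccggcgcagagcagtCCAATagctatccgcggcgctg
Pola1, chrX:93632156-93632375, minus strand: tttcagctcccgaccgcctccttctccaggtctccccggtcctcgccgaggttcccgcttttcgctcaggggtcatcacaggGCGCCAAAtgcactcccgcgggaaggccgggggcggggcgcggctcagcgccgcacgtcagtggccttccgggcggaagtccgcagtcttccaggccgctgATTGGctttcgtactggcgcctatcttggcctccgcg
In Top2a and Mki67 the capitals are CHR and CCAAT letters in repeated copies. Cdk1 carries both kinds and also an E2F match. In Cdc6 the only match is to E2F. Pola1 carries an E2F match and, nearer its start, a CCAAT match, and in Mcm5 a pair of E2F matches overlap upstream of CCAAT letters. No CHR letters lie in these 3 S-phase stretches.

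None of the 38 genes passed the test between FA and PBS tumours. By limma, 0 members passed an adjusted p under 0.05, against a background of 0% of all 15023 genes tested. No member had an unadjusted p under 0.05, against 1.28% of all genes (192 genes), and the smallest was 0.272, for Cdk4. The adjusted p was 1 for all members. Groups did not overlap in 1 member, Cdk4, which is 2.63% of members, against 4.69% of all genes tested. In whole-tumour RNA, fewer dividing cells and less of a transcript in each dividing cell cannot be told apart.

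Differences are FA minus PBS means of log2(TPM + 1). Means were higher in FA for 29 members and lower for 9, with a median difference of 0.054, against 0.0016 over all genes tested. Without FA replicate 3 the same count was 12 higher and 26 lower, with a median of -0.026 (all genes 0.013). The direction of the median therefore rested on that 1 tumour. Leaving out PBS replicate 1 instead moved the group medians the other way. They were then 0.13 for mitotic, 0.13 for S-phase and 0.031 for G1 regulator members. The 95% interval of the difference lay inside 1.5-fold in both directions for 35 of 38 members. The 3 with wider intervals were Birc5, Cdc6 and Ccne1. The same share was not read over all genes tested, so it cannot be called particular to these members.

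**Figure D1:**
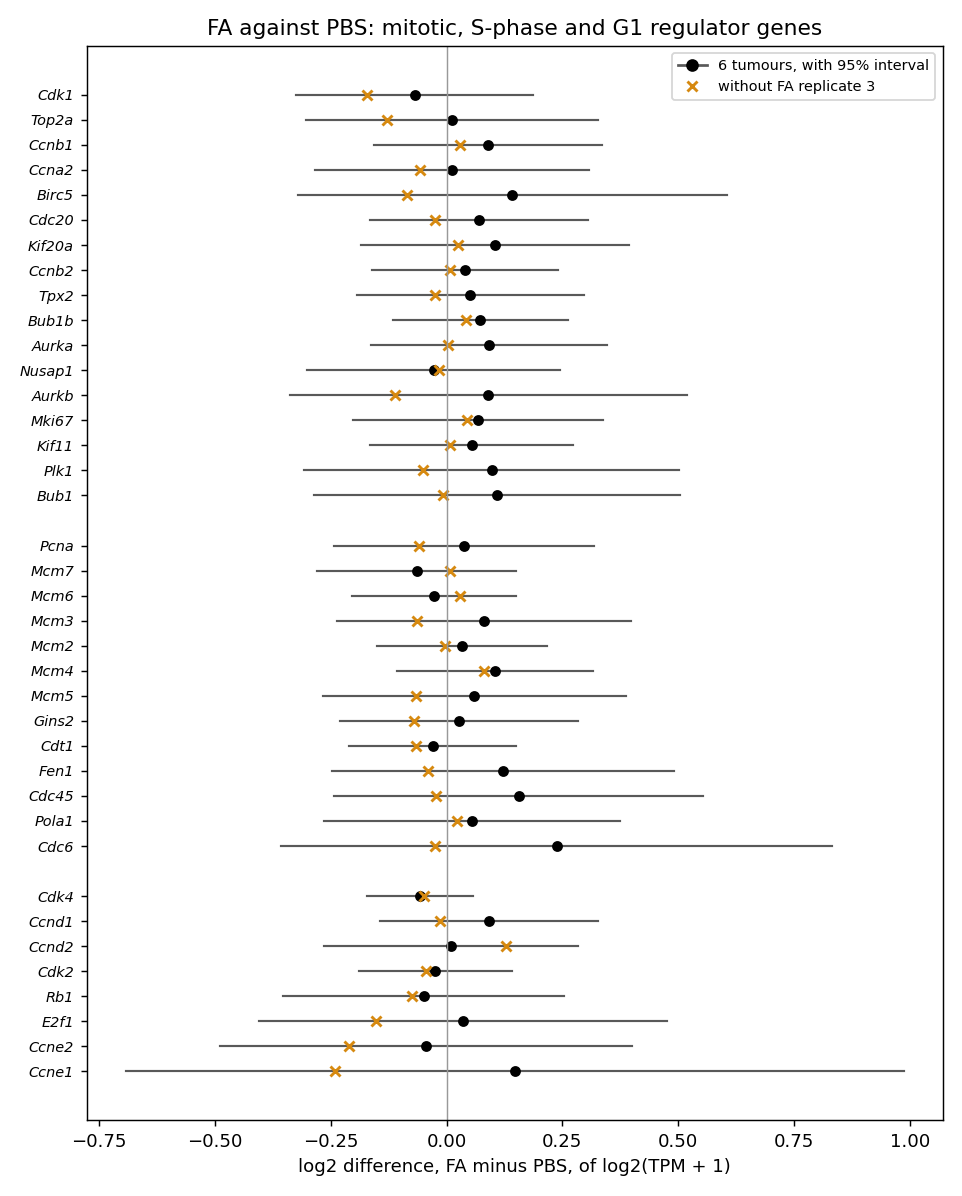
Log2 difference of log2(TPM + 1), FA minus PBS, for each gene (x axis), with genes in rows ordered by mean level within the mitotic, S-phase and G1 regulator groups. Circles are estimates from 6 tumours with 95% intervals, crosses the estimate without FA replicate 3, and all 38 intervals include 0.

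Among mitotic genes the mean level was highest for Cdk1 and lowest for Bub1. Mki67 (ENSMUSG00000031004), the antigen of dividing cells that coats mitotic chromosomes, was at 38.95, 34.6 and 38.6 TPM with FA, against 41.3, 31.99 and 34.1 TPM with PBS. Top2a (ENSMUSG00000020914), the topoisomerase that untangles sister chromatids, was at 136, 126 and 176 TPM with FA, against 156, 137 and 138 TPM with PBS. Top2a was highest in FA replicate 3, then PBS replicate 1, and Mki67 in PBS replicate 1, then FA replicates 1 and 3, so the groups overlapped in both genes. Their log2 differences were 0.067 ± 0.11 and 0.012 ± 0.13 (estimate ± SE), with intervals of -0.20 to 0.34 and -0.30 to 0.33.

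Cdk1, the kinase that drives entry into mitosis, was at 153, 135 and 178 TPM with FA, against 169, 153 and 164 TPM with PBS. It was the mitotic gene with the lowest difference, -0.069 ± 0.11, and FA replicate 2 was the lowest of the 6 tumours. Among its partners, Ccnb1 (cyclin B1) was at 109, 104 and 121 TPM with FA, against 117, 93.2 and 104 TPM with PBS. Ccnb2 (cyclin B2) ranged from 54.8 to 62.1 TPM with FA and from 54.6 to 61.95 TPM with PBS. Cyclin B1 stood above cyclin B2 in all 6 tumours, by 1.78- to 1.95-fold in FA and 1.71- to 1.89-fold in PBS tumours. Ccna2 (cyclin A2), which acts in S phase and early mitosis, was at 98.6 ± 9.81 TPM with FA and 98.2 ± 14.6 TPM with PBS (SD, n = 3 each), and PBS replicate 1 was its highest tumour.

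Birc5 and Aurkb, 2 genes of the chromosomal passenger complex, spread most among the mitotic members. Birc5, which encodes survivin, was at 85.5, 84.00 and 137 TPM with FA, against 98.9, 82.3 and 89.5 TPM with PBS. Aurkb, the kinase of the same complex, was at 36.3, 36.6 and 55.9 TPM with FA, against 44.3, 36.7 and 37.8 TPM with PBS. FA replicate 3 lay above the other 5 tumours in both, while the other 2 FA tumours lay within or below the PBS range. The differences of 0.14 ± 0.19 for Birc5 and 0.090 ± 0.18 for Aurkb became -0.085 and -0.11 without FA replicate 3. Aurka, the kinase of the spindle poles, was at 50.8 ± 5.83 TPM with FA and 47.5 ± 3.92 TPM with PBS, and its activator Tpx2 at 53.5 ± 5.80 TPM with FA and 51.5 ± 3.93 TPM with PBS.

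Plk1, a kinase of centrosome maturation and mitotic entry, was at 33.2, 32.5 and 45.2 TPM with FA, against 41.4, 30.1 and 31.9 TPM with PBS. The spindle checkpoint kinase gene Bub1 was at 30.1, 24.6 and 34.8 TPM with FA, against 32.7, 23.6 and 26.4 TPM with PBS. For each, FA replicate 3 and PBS replicate 1 were the 2 highest tumours and PBS replicate 2 the lowest. The checkpoint gene Bub1b varied less, at 50.6 ± 2.38 TPM with FA and 48.1 ± 3.24 TPM with PBS. Cdc20, which activates the anaphase-promoting complex and ends the checkpoint, was at 82.2 ± 10.1 TPM with FA and 77.9 ± 3.39 TPM with PBS. Both motor genes overlapped between the groups. Kif11, which separates the spindle poles, was at 36.7 ± 2.80 TPM with FA and 35.3 ± 2.54 TPM with PBS. Kif20a, which acts in cytokinesis, was at 64.04 ± 7.43 TPM with FA and 59.5 ± 7.33 TPM with PBS. Nusap1, a spindle microtubule protein gene, was at 43.8 ± 5.05 TPM with FA and 44.7 ± 4.62 TPM with PBS, and FA replicate 3 was not among its 2 highest tumours. Together 15 of 17 mitotic members had a higher mean in FA, with a median difference of 0.071. Without FA replicate 3 this was 7 of 17, with a median of -0.017.

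**Figure D2:**
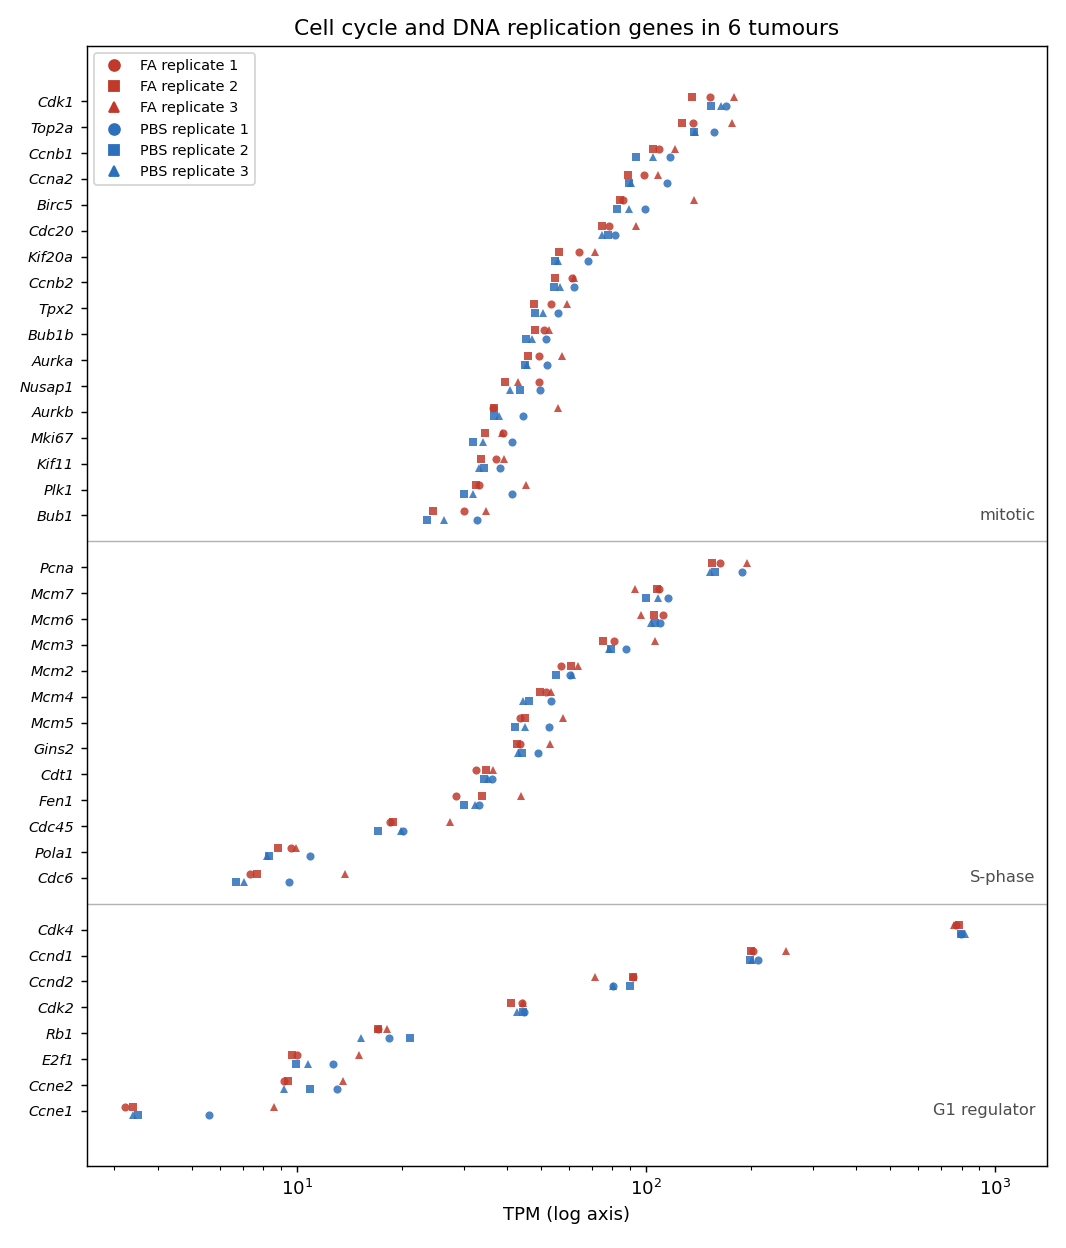
TPM of each gene (x axis, log scale) in the 6 tumours, with genes in rows ordered by mean level within the mitotic, S-phase and G1 regulator groups, FA in red above PBS in blue, and a marker shape for each replicate. Cdk4 is the highest gene and Ccne1 the lowest. The red triangle of FA replicate 3 lies to the right for most genes but is the leftmost point for Mcm6, Mcm7, Ccnd2 and Cdk4.

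S-phase genes covered a wider range of levels than the mitotic ones. Pcna, the sliding clamp of the replication fork, was the highest at 162, 154 and 194 TPM with FA, against 188, 158 and 152 TPM with PBS. Cdc6, which loads the helicase with Cdt1, was at 7.32, 7.68 and 13.7 TPM with FA, against 9.48, 6.68 and 7.04 TPM with PBS. In FA replicate 3 Cdc6 was above all other tumours, and without that tumour its difference of 0.24 ± 0.25 became -0.025. Cdt1 was steadier, at 32.5, 34.8 and 36.3 TPM with FA, against 36.2, 34.3 and 35.2 TPM with PBS.

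Subunits of the fork followed. Cdc45, which completes the active helicase, was at 18.4, 18.8 and 27.5 TPM with FA, against 20.1, 17.04 and 19.8 TPM with PBS. Fen1, the nuclease that trims Okazaki fragments, was at 28.4, 33.8 and 43.8 TPM with FA, against 33.3, 30.1 and 32.4 TPM with PBS. FA replicate 3 was again the highest in both, and FA replicate 1 was the lowest tumour for Fen1. The differences were 0.16 ± 0.17 and 0.12 ± 0.15, and -0.023 and -0.039 without FA replicate 3. Gins2, of the GINS complex that binds Cdc45, was at 46.4 ± 5.78 TPM with FA and 45.4 ± 3.27 TPM with PBS. Pola1, the catalytic subunit of the polymerase that starts each strand, was at 9.46 ± 0.566 TPM with FA and 9.14 ± 1.53 TPM with PBS.

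The MCM helicase is a ring of 6 different subunits, 1 of each, and its transcripts were not at equal levels. Mcm6 was at 112, 105 and 96.3 TPM with FA, against 109.7, 106 and 103 TPM with PBS. Mcm7 was at 109, 108 and 93.1 TPM with FA, against 115, 99.98 and 108 TPM with PBS. Both had their lowest level in FA replicate 3, unlike most members. Mcm3 was at 80.98, 75.2 and 106 TPM with FA, against 87.5, 79.2 and 78.5 TPM with PBS. Mcm5 was at 43.5, 45.1 and 57.7 TPM with FA, against 52.8, 41.98 and 44.8 TPM with PBS. Both were highest in FA replicate 3. Mcm3 was the highest subunit there, at 1.14 times Mcm7, while it lay between 0.699 and 0.744 times Mcm7 in the other FA tumours and between 0.724 and 0.792 times Mcm7 in PBS tumours. Mcm2 averaged 60.5 ± 3.40 TPM with FA and 59.03 ± 3.26 TPM with PBS. Mcm4 averaged 51.4 ± 1.81 TPM with FA and 47.9 ± 4.74 TPM with PBS. The 6 subunits summed to 454, 443 and 469.8 TPM with FA and 479, 428 and 440.2 TPM with PBS. Of the 13 S-phase members 10 had a higher mean in FA, with a median difference of 0.055, and without FA replicate 3 the count was 4 and the median -0.025.

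**Figure D3:**
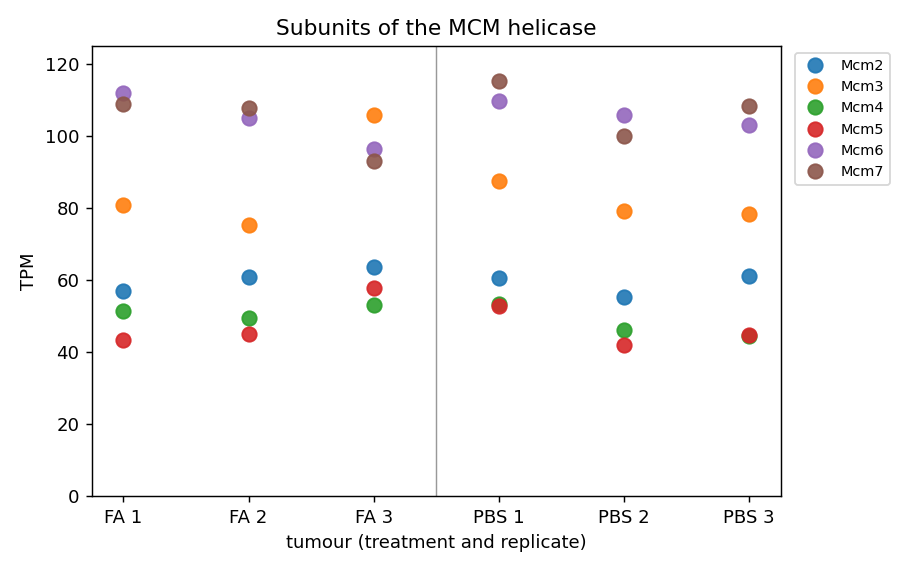
TPM of the 6 MCM helicase subunits (y axis, from 0) in the 3 FA tumours on the left and the 3 PBS tumours on the right. Mcm6 and Mcm7 are the top pair in 5 tumours, and in FA replicate 3 Mcm3 lies above both.

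Mean levels of the G1 regulators covered the widest range of the 3 groups. Cdk4 (ENSMUSG00000006728), the kinase partner of D cyclins, was the highest member at 769, 784 and 762 TPM with FA, against 794, 797 and 819 TPM with PBS. All 3 FA tumours lay below all 3 PBS tumours, with a difference of -0.058 ± 0.048, an interval of -0.17 to 0.057, and limma gave an unadjusted p of 0.272. Ccnd1 (cyclin D1) was at 202, 199 and 251 TPM with FA, against 209, 198 and 201 TPM with PBS. Ccnd2 (cyclin D2) was at 91.5, 91.4 and 71.2 TPM with FA, against 80.6, 89.9 and 80.5 TPM with PBS. FA replicate 3 was the highest tumour for cyclin D1 and the lowest for cyclin D2.

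Ccne1 (ENSMUSG00000002068), cyclin E1, had the lowest level of all members and the widest spread, at 3.21, 3.39 and 8.62 TPM with FA, against 5.60, 3.51 and 3.40 TPM with PBS. FA replicate 3 was 2.69 times the lowest tumour, FA replicate 1. The difference of 0.15 ± 0.35 had an interval of -0.69 to 0.99, and became -0.24 without FA replicate 3. Cyclin E2 (Ccne2) was at 9.15, 9.45 and 13.6 TPM with FA, against 13.01, 10.9 and 9.17 TPM with PBS. E2f1, an activator of S-phase genes, was at 10.02, 9.65 and 15.03 TPM with FA, against 12.6, 9.92 and 10.7 TPM with PBS. In both, FA replicate 3 and PBS replicate 1 were the 2 highest tumours, and without FA replicate 3 their differences were -0.21 and -0.15. Cdk2, the partner of cyclins E and A, was at 43.2 ± 1.83 TPM with FA and 43.9 ± 1.14 TPM with PBS. Rb1, which encodes the retinoblastoma protein, was at 17.1, 17.1 and 18.1 TPM with FA, against 18.3, 21.1 and 15.2 TPM with PBS, and its highest and lowest tumours were both PBS tumours. Of the 8 regulators 4 had a higher mean in FA, with a median difference of -0.0072, and without FA replicate 3 the count was 1 and the median -0.061.

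S-phase and mitotic scores were highest in the same tumours, and differed in the order of the rest. A score, the mean log2(TPM + 1) of a group's genes, gave 5.95, 5.82 and 6.15 with FA and 6.07, 5.82 and 5.86 with PBS for mitosis. The same score for S phase was 5.42, 5.43 and 5.68 with FA and 5.57, 5.37 and 5.41 with PBS. Both were highest in FA replicate 3 and second highest in PBS replicate 1, and the treatment groups overlapped. The S-phase minus mitotic score was -0.53, -0.39 and -0.48 with FA and -0.49, -0.45 and -0.45 with PBS. FA tumours averaged -0.46 ± 0.070 and PBS tumours -0.47 ± 0.024 (SD, n = 3 each), a difference of 0.0019, and all PBS values lay inside the FA range. Scores of G1 regulators were 5.29, 5.29 and 5.58 with FA and 5.47, 5.37 and 5.27 with PBS. No p is given for these scores, since the genes were chosen with results of these data known.

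**Figure D4:**
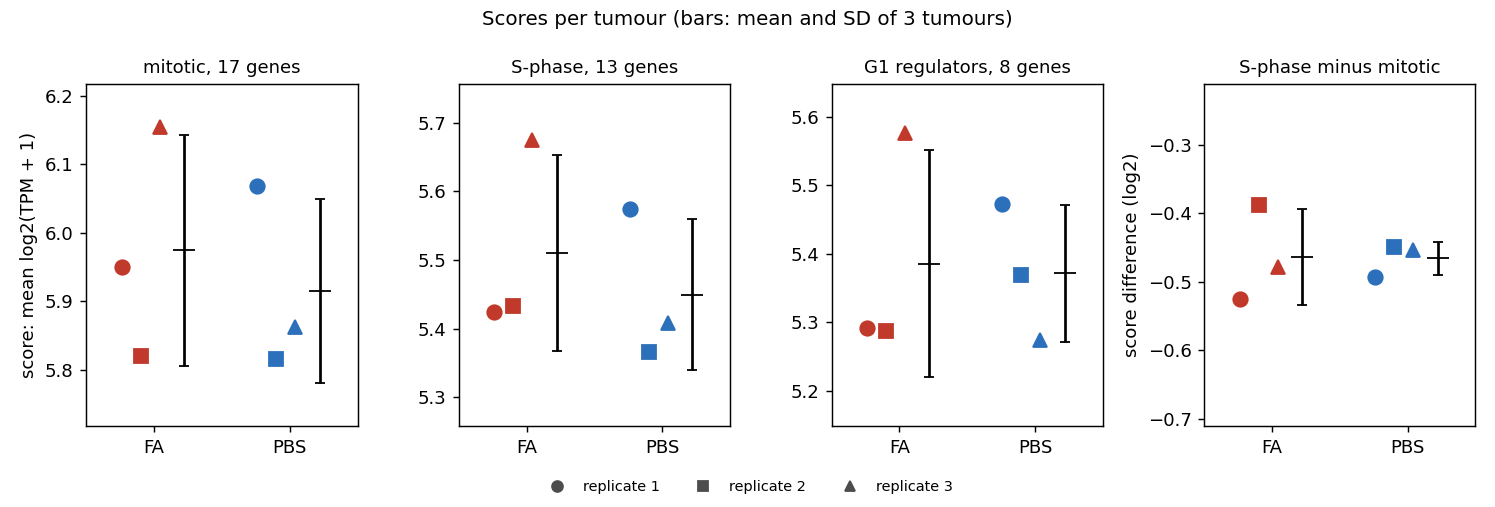
Score per tumour, the mean log2(TPM + 1) of the mitotic, S-phase and G1 regulator genes, and the S-phase minus mitotic score (y axes, each spanning the same length on the log2 scale), for FA on the left and PBS on the right of each panel, with mean and SD of 3 tumours beside the points. FA replicate 3 and PBS replicate 1 are the highest points of the first 3 panels, and the groups overlap in all 4.

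The same 2 tumours were the highest for most members. FA replicate 3 held the highest level of 27 of 38 members, or 71.1%, against 29.4% of all genes tested, and PBS replicate 1 held it for 7. These were the 2 highest tumours in 28 of 38 members (73.7%), against 15.9% of all genes tested. By group, this held for 15 of 17 mitotic, 9 of 13 S-phase and 4 of 8 G1 regulator genes. It held for Top2a, whose printed stretch carries CHR and CCAAT letters, and for Cdc6, whose stretch carries an E2F match alone. It did not hold for Mki67, whose printed stretch carries CHR and CCAAT letters as that of Top2a does. The members that were lower in FA replicate 3 than the mean of the other 5 tumours were Ccnd2, Mcm7, Mcm6, Cdk4 and Nusap1, with differences of -0.28, -0.21, -0.15, -0.057 and -0.043 on the log2 scale. At the other end were Ccne1 (1.02), Cdc6 (0.77) and Birc5 (0.63). The median within-group SD was 0.156 on the log2 scale for members and 0.161 for all genes tested. These sets were not matched for level, and the genes tested reach down to a mean of 1 TPM.

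**Figure D5:**
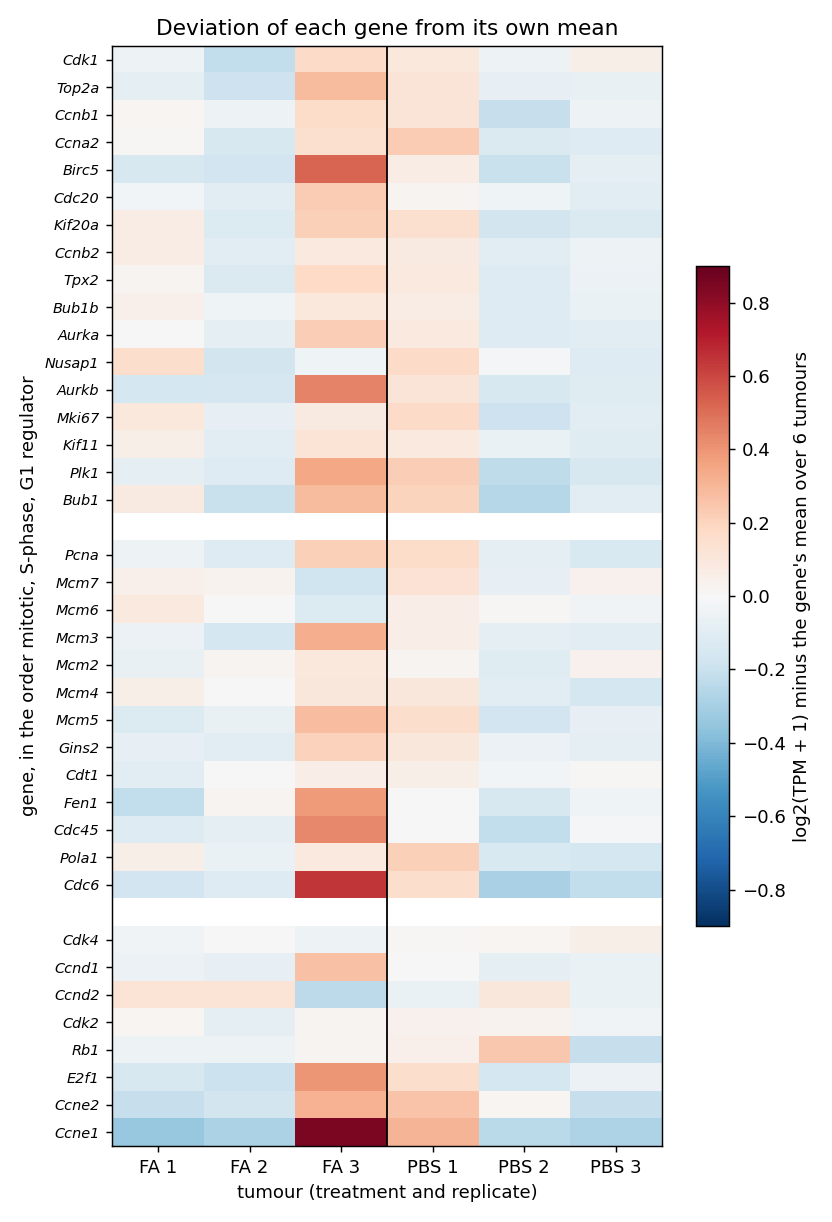
Deviation of log2(TPM + 1) from the gene's own mean over the 6 tumours (colour, log2 scale), for the 38 genes in rows and the FA tumours left of the PBS tumours. The FA 3 column is above the mean for most genes and PBS 1 follows, while Ccnd2, Mcm6, Mcm7, Cdk4 and Nusap1 are below their mean in FA 3.

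Markers of other cells moved with the same 2 tumours. FA replicate 3 and PBS replicate 1 were the 2 highest tumours for 6 of 6 macrophage, 5 of 7 fibroblast, 5 of 5 endothelial and 5 of 6 skeletal muscle markers, and for 0 of 6 epithelial markers. Macrophage markers summed to 435 to 823 TPM with FA and 417 to 526 TPM with PBS. Fibroblast markers summed to 1903 to 6523 TPM with FA and 1833 to 3528 TPM with PBS, and endothelial markers to 48.1 to 198 TPM with FA and 51.98 to 87.5 TPM with PBS. The highest FA sum was FA replicate 3 and the highest PBS sum PBS replicate 1 in each case. Skeletal muscle markers summed to 12.7 to 1103 TPM with FA and 14.4 to 159.7 TPM with PBS, with Ckm and Myh4 listed at 0 in FA replicate 1 and Acta1, Ckm and Myh4 in PBS replicate 2. Epithelial markers summed to 5000.5 to 5612 TPM with FA and 4603 to 5304 TPM with PBS. FA replicate 3 had their highest sum too and held the highest level of 3 of the 6, while PBS replicate 1 had their lowest sum. Among single markers, Adgre1 of macrophages was at 10.1, 11.3 and 18.7 TPM with FA, against 12.9, 10.3 and 9.77 TPM with PBS. Col1a1 of fibroblasts was at 451, 574 and 1679.7 TPM with FA, against 808, 378 and 616 TPM with PBS. Kdr of endothelium was at 4.27, 5.51 and 17.4 TPM with FA, against 7.69, 4.00 and 5.17 TPM with PBS. All were highest in FA replicate 3, then in PBS replicate 1. Tnni2 of muscle followed the same order, at 10.6, 23.5 and 121 TPM with FA, against 27.6, 12.3 and 20.3 TPM with PBS. The part of these cells in the order of the cell cycle genes was not tested.

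Other genes of the pathway gave no call either, and none in the lists that follow had an unadjusted p under 0.05. Among 40 other replication genes 0 passed by limma, 21 had a higher and 19 a lower mean in FA, and the median difference was 0.011. Without FA replicate 3 the count was 10 higher and 30 lower, with a median of -0.036. Those with the smallest unadjusted p-values were Clspn, Rfc3, Uhrf1 and Chaf1a, all above 0.05. Clspn, a checkpoint mediator at forks, averaged 7.81 ± 1.59 TPM with FA and 6.33 ± 1.46 TPM with PBS. The clamp loader subunit gene Rfc3 averaged 33.4 ± 0.467 TPM with FA and 35.7 ± 1.73 TPM with PBS. Uhrf1, which helps copy DNA methylation, averaged 39.6 ± 10.3 TPM with FA and 33.3 ± 3.71 TPM with PBS, and the histone chaperone subunit gene Chaf1a averaged 14.9 ± 1.87 TPM with FA and 13.3 ± 1.48 TPM with PBS. Rfc3 was the 1 gene of the 40 whose groups did not overlap (2.5%, against 4.69% of all genes tested), with FA lower. Among 46 other mitotic genes 0 passed, 34 had a higher and 12 a lower mean in FA, and the median difference was 0.039. This turned to 17 higher and 29 lower without FA replicate 3, with a median of -0.029. Foxm1, the activator of mitotic genes, was at 45.1, 45.5 and 57.9 TPM with FA, against 46.9, 33.2 and 40.95 TPM with PBS, a difference of 0.29 ± 0.15. The kinetochore gene Spc24 was at 25.2 ± 5.21 TPM with FA and 20.8 ± 2.00 TPM with PBS, Ccnf (cyclin F) at 16.3 ± 3.09 TPM with FA and 13.5 ± 1.47 TPM with PBS, and the cohesin protector gene Sgo1 at 10.99 ± 1.54 TPM with FA and 9.56 ± 0.960 TPM with PBS. FA replicate 3 and PBS replicate 1 were the 2 highest tumours for 26 of 40 replication and 33 of 46 mitotic genes.

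Of 12 genes for CDK inhibitors, pocket proteins and related genes, 0 passed by limma, 4 had a higher and 8 a lower mean in FA, and the median difference was -0.086, or -0.014 without FA replicate 3. Cdkn2a, which encodes the p16 and p19 inhibitors, was at 309.8, 291 and 221 TPM with FA, against 296, 343 and 332 TPM with PBS. Cdkn2b, the neighbouring p15 inhibitor gene, was at 92.95, 87.5 and 61.4 TPM with FA, against 83.5, 93.4 and 91.9 TPM with PBS. Both were lowest in FA replicate 3 and highest in PBS replicate 2. Cdkn1b, which encodes the p27 inhibitor, was at 75.4, 59.1 and 46.2 TPM with FA, against 64.8, 73.2 and 62.9 TPM with PBS, and the p53 target Ccng1 (cyclin G1) at 32.9 ± 2.43 TPM with FA and 30.4 ± 1.07 TPM with PBS. Of the 12, 5 were highest and 6 lowest in FA replicate 3. FA replicate 3 and PBS replicate 1 were the 2 highest tumours for 3 of the 12 (25%), against 15.9% of all genes tested.

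Of 17 other G1 cyclins, kinases and E2F factors, 0 passed, 11 had a higher and 6 a lower mean in FA, and the median difference was 0.031, or 0.021 without FA replicate 3. For 3 of the 17 (17.6%, against 15.9% of all genes tested), FA replicate 3 and PBS replicate 1 were the 2 highest tumours. Myc, a transcription factor that promotes entry into the cycle, was at 117, 124 and 159 TPM with FA, against 115, 98.5 and 109.6 TPM with PBS. Myc was the 1 gene of the 17 whose groups did not overlap (5.88%, against 4.69% of all genes tested). Its difference was 0.29 ± 0.13 with an interval of -0.013 to 0.60, an unadjusted p of 0.0577 and an adjusted p of 1 by limma. Ccnh, the cyclin of the CDK-activating kinase, was at 32.2 ± 3.86 TPM with FA and 35.8 ± 2.22 TPM with PBS, E2f5, a repressor, at 20.98 ± 2.16 TPM with FA and 23.03 ± 0.548 TPM with PBS, and E2f7, a repressor of S-phase genes, at 7.45 ± 2.00 TPM with FA and 6.15 ± 1.37 TPM with PBS.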

How the data were processed

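Total RNA of 6 tumours (integrity number above 8, 4 µg per stranded library, 12 PCR cycles, per the labels' protocols) was sequenced. The authors deposited 1 table of TPM per gene and tumour. Tools listed in the submitters' processing notes, with no role given, are FastQC, STAR, featureCounts and RSEM. Genome build, annotation and settings were not given in the sources used here. All columns sum to the same total, so depth is unknown and no counting interval can be given. TPM is a share, so a transcript that takes up more of a library lowers the others. Columns were matched to tumours by the sample descriptions.

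Values were analysed as log2(TPM + 1), so log2 differences of genes of few TPM, such as Ccne1 and Cdc6, understate the change. limma 3.58.1 in R 4.3.3 was fitted over the 15023 genes that average 1 TPM or more, with FA against PBS, no covariate and a variance trend. Two-sided p-values were adjusted by Benjamini-Hochberg over these genes, with a threshold of 0.05. Errors are SD beside TPM and SE beside log2 differences, and intervals are at 95%. Tested on simulated data for FA against PBS (15023 genes), the fit recovered 29.9% of 1.5-fold, 53.7% of 2-fold and 89.4% of 4-fold changes. Paired replicate numbers were checked and do not pair the tumours.

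The members, lists and tests were chosen with earlier results of these data known. Named are all 38 members, up to 4 genes of each other list with the smallest unadjusted p, and 5 markers. Sums, ratios within families, the counts of highest tumours and genes named as listed at 0 were chosen after the values were seen. 1 of 47 other mitotic symbols is not analysed here. Alternatives were other pseudocounts, filters, scalings, variance models, array weights, a replicate block and leaving out each tumour.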

Additional observations from a re-analysis of the deposited data

How the results depend on the processing

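No member passed an adjusted p under 0.05 by limma in any alternative. Over all genes, 0 were called except for 2 without the filter (Gm22728 and Gm24045). The omission of a tumour gave 0 to 1 call, the 1 being Snord14d without FA replicate 3. Group medians and the S-phase minus mitotic difference moved by less than the pooled within-group SD of the matching score in every alternative. With 3 tumours per group, leaving out 1 could not move the score difference that far, so its omissions were no test of this. The mitotic and S-phase medians did change sign without FA replicate 3. Leaving out 1 tumour gave medians of -0.017 to 0.13 (mitotic), -0.025 to 0.13 (S-phase) and -0.061 to 0.031 (G1 regulators). Each was lowest without FA replicate 3 and highest without PBS replicate 1. S-phase minus mitotic differences ran from -0.036 to 0.033 over the same omissions. With array weights the S-phase median was -0.0064 and the mitotic median 0.00037. The median of all genes stayed under 0.02 in size. Signs of uncalled differences changed with array weights for Aurkb (-0.058), Birc5 (-0.037), Ccna2 (-0.042), Ccne1 (-0.12), E2f1 (-0.11), Gins2 (-0.039), Mcm2 (-0.0064), Mcm3 (-0.025), Mcm5 (-0.037), Mcm6 (0.017), Pcna (-0.026), Plk1 (-0.017), Top2a (-0.093), Tpx2 (-0.016), and with quantile normalization for Top2a (-0.0020). They changed when 1 tumour was left out for Aurkb (-0.11 to 0.19), Birc5 (-0.085 to 0.26), Bub1 (-0.0070 to 0.24), Ccna2 (-0.058 to 0.13), Ccnd1 (-0.015 to 0.15), Ccnd2 (-0.050 to 0.13), Ccne1 (-0.24 to 0.36), Ccne2 (-0.21 to 0.073), Cdc20 (-0.026 to 0.14), Cdc45 (-0.023 to 0.25), Cdc6 (-0.025 to 0.38), Cdk1 (-0.17 to 0.026), Cdk2 (-0.045 to 0.011), Cdt1 (-0.066 to 0.013), E2f1 (-0.15 to 0.14), Fen1 (-0.039 to 0.26), Gins2 (-0.071 to 0.084), Mcm2 (-0.012 to 0.076), Mcm3 (-0.063 to 0.18), Mcm5 (-0.065 to 0.15), Mcm6 (-0.077 to 0.029), Mcm7 (-0.12 to 0.0081), Mki67 (-0.0071 to 0.17), Nusap1 (-0.11 to 0.050), Pcna (-0.060 to 0.13), Plk1 (-0.051 to 0.23), Pola1 (-0.011 to 0.18), Rb1 (-0.17 to 0.058), Top2a (-0.13 to 0.11), Tpx2 (-0.025 to 0.13), where the ranges cover all 6 omissions. The cause was not tested. The replicate number as a block, whose same-numbered tumours had correlations of deviations of -0.208, 0.053 and -0.022, gave 0 calls over all genes. Each number holds 1 FA and 1 PBS tumour, so this block could not change the differences or the member medians. Read depth is unknown, and so is what it limits.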

Other observations

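Some ratios within gene families, chosen after the values were seen and given with no test, also set FA replicate 3 apart, and others did not. Cyclin D1 over cyclin D2 (Ccnd1 over Ccnd2) was 2.21, 2.18 and 3.52 with FA and 2.59, 2.21 and 2.50 with PBS. Cyclin E1 over cyclin E2 (Ccne1 over Ccne2) was 0.351, 0.359 and 0.636 with FA and 0.430, 0.323 and 0.371 with PBS. The licensing factor ratio Cdt1 over Cdc6 was 4.44, 4.53 and 2.66 with FA and 3.82, 5.14 and 5.00 with PBS, lowest in FA replicate 3 and next lowest in PBS replicate 1. Aurkb over Aurka was 0.739, 0.797 and 0.976 with FA and 0.851, 0.816 and 0.831 with PBS. Cdk4 over Cdk2 varied little, at 17.4, 19.1 and 17.2 with FA and 17.8, 17.9 and 19.2 with PBS.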
